A study of Mus musculus with 7 samples.

Results

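The cells described here were mesenchymal cells of the Wnt1-Cre lineage at embryonic day (E) 9.5 that carried RNA of a Hox group 3 gene, the code of the third and more caudal pharyngeal arches. They were chosen by measured values. A cell was a member if it had at least 1000 genes detected, at most 10% of its unique molecular identifiers (UMIs, each the count of a separate RNA molecule) from mitochondrial genes, at least 1 UMI of Hoxa3, Hoxb3 and Hoxd3 together, at least 2 UMIs of Twist1, Prrx1 and Prrx2 together, and no UMI of Sox10 or Foxf1. The rule found 1620 cells among the 20474 barcodes at E9.5, 708 in the control library and 912 in the Tbx1 null library, and the whole series held 65862 barcodes. The other cells with at least 2 UMIs of Twist1, Prrx1 and Prrx2, 5252 in the control and 7151 in the null library, served for comparison.

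The study profiled single cells of the neural crest from dissected pharyngeal regions of mouse embryos by droplet RNA sequencing, to ask how loss of Tbx1 in neighbouring tissues affects crest cells. Control embryos were Wnt1-Cre/+;ROSA-EGFPf/+. The null embryos carried the same Wnt1-Cre and ROSA-EGFP alleles and are called Tbx1null in their sample titles. The study lists them as Tbx1-/-, while the genotype field of the same samples reads Tbx1+/-. They are called Tbx1 null below. All embryos had a mixed Swiss-Webster background, and each library was a pool of embryos. At E9.5 the dissection held all pharyngeal arches, the heart and the neural tube beside them, from which the EGFP-positive cells were sorted. Wnt1-Cre marks the dorsal neural tube as well as the crest that leaves it, so that the sort could hold cells of both, and the loss of Tbx1 was not restricted to the crest. Each genotype had 1 library at E9.5. No test between genotypes was therefore possible and no p-value is given. Intervals are 95% intervals that cover counting error only. The labels name different versions of the library kit for the 2 libraries, so genotype, kit and pool cannot be told apart.

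Crest cells leave the hindbrain in streams that fill the pharyngeal arches, and the Hox genes they express record the level from which they came. Crest of the first arch expresses no Hox gene, crest of the second arch expresses Hox group 2, and crest of the third arch and further caudal also expresses Hox group 3. The caudal arch crest builds the walls of the arch arteries and enters the outflow tract of the heart, while Tbx1, a T-box factor, acts in the endoderm, ectoderm and mesoderm around it.

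The 7 libraries held 140264662 to 234844769 UMIs, with 203853100 in the control and 234844769 in the null library at E9.5. At that stage 8612 of 9173 control and 10577 of 11301 null barcodes passed the limits on genes and mitochondrial UMIs. Members had a median of 25539.5 UMIs in the control and 22566 in the null library, and the other mesenchymal cells had 24994 and 22828. The E9.5 libraries shared 27 barcode sequences, none of them among members. Tbx1 itself had 212 UMIs in the control and 153 in the null cells that were kept, and 30 and 38 UMIs in members. Counts taken at the end of a transcript do not show whether a deleted part of the gene is missing, so these values do not check the genotype. Xist, the RNA of the inactive X chromosome, had 0.0517 CPM (UMIs scaled to a common library total) in control and 358 CPM in null members. The labels give no embryo sex, and the part of sex in the differences below was not tested.

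Caudal arch mesenchyme described a portion of the members only. Sox1, Sox2 and Sox3 (the SoxB1 genes, which mark neural progenitors) had no UMI in 403 control and 473 null members, 1 or 2 UMIs in 96 and 145, and 3 or more in 209 and 294. Members with 3 or more SoxB1 UMIs made up 29.5% of the control and 32.2% of the null members, against 7.56% and 5.68% of the other mesenchymal cells. These cells were near the limit of the rule for mesenchymal genes. Their median of Twist1, Prrx1 and Prrx2 UMIs together was 3 in the control and 3.5 in the null library, whereas members without a SoxB1 UMI had medians of 29 and 33. Fewer than 8 such UMIs were found in 69.4% and 65.3% of the members with 3 or more SoxB1 UMIs, and in 6.203% and 8.25% of those without.

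**Figure D1:**
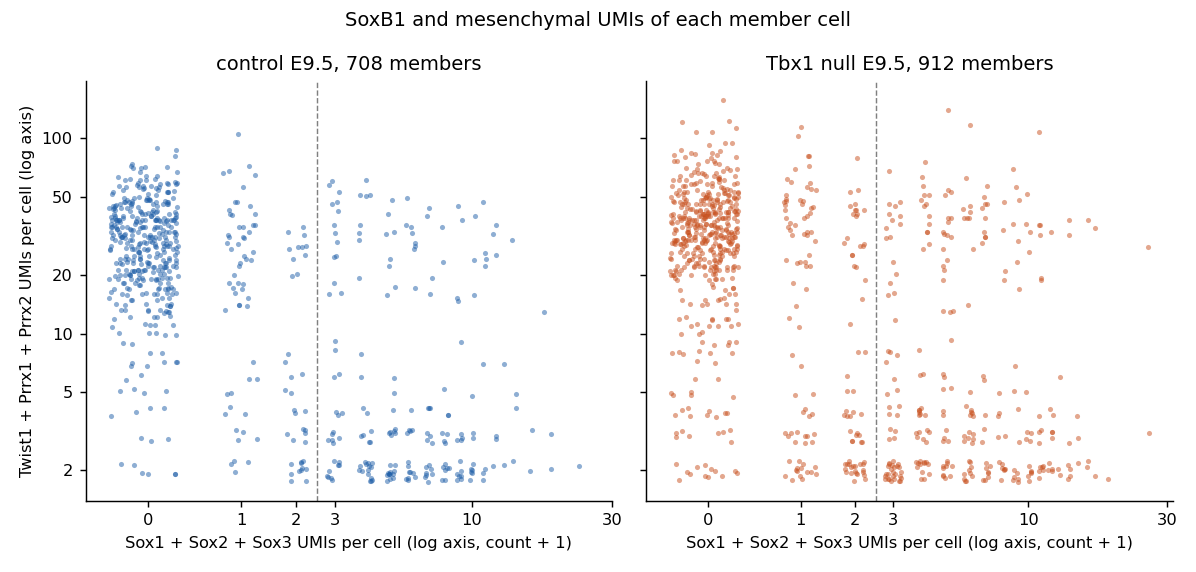
Each point is a member cell of the control (left, 708 cells) or Tbx1 null (right, 912 cells) library at E9.5. The x axis gives its Sox1, Sox2 and Sox3 UMIs together and the y axis its Twist1, Prrx1 and Prrx2 UMIs together, both on log axes with a small seeded jitter, and the dashed line stands before 3 SoxB1 UMIs. Cells without a SoxB1 UMI spread widely on the y axis, with medians of 29 and 33 mesenchymal UMIs, and most cells right of the line lie under 8.

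Other neural tube markers were read in the same cells, without Sox1, Sox2 and Sox3, which made the division. The summed level of these 6 genes (Pax6, Tubb3, Elavl3, Elavl4, Zic1 and Zic2) was 301 CPM in control and 277 CPM in null members with 3 or more SoxB1 UMIs, and 34.7 and 43.0 CPM in members without one. It was 616 and 684 CPM in cells that had Hox3 UMIs and no Twist1, Prrx1 or Prrx2 UMI, and 14.3 and 15.6 CPM in mesenchymal cells without Hox3, SoxB1, Sox10 or Foxf1 UMIs (below, Hox3-negative cells). The sum in members with 3 or more SoxB1 UMIs lay between those of the last 2 kinds of cell. Scrublet, which scores how far a barcode resembles a mixture of 2 cells, marked 18.6% of control and 25.7% of null members as doublets against 9.43% and 10.5% of the other mesenchymal cells. It marked 29.2% and 32.7% of the members with 3 or more SoxB1 UMIs and 14.1% and 18.8% of those without. The part of doublets and of free RNA in these cells was not tested. Results are therefore given for all members and for the 403 control and 473 null members without a SoxB1 UMI, a division made after the data had been seen.

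Markers of other cell types were also read, although the sort kept EGFP-positive cells only, and they differed in level. In members the 7 blood genes summed to 0 and 1.33 CPM in the control and null libraries, with all 7 at 0 in the control and 2 at 0 in the null. The 4 endothelial genes summed to 1.19 and 1.38 CPM, with 1 at 0 in the control. The 5 cardiomyocyte genes, 1 of them at 0 in the control, summed to 1.71 and 15.5 CPM, and to 1.23 and 2.27 CPM in members without a SoxB1 UMI. The 7 markers of migrating crest and glia, of which Sox10 was set to 0 by the rule, summed to 158 and 217 CPM in all members, above the 108 and 114 CPM of the other mesenchymal cells, and to 51.5 and 76.6 CPM in members without a SoxB1 UMI. The 4 epithelial genes summed to 27.3 and 32.5 CPM in members against 18.2 and 16.1 CPM in the other mesenchymal cells, and to 66.5 CPM in null members with 1 or 2 SoxB1 UMIs. The 6 somite markers summed to 50.6 and 44.9 CPM in members against 22.1 and 17.9 CPM in the other mesenchymal cells, and to 20.9 and 15.2 CPM in members without a SoxB1 UMI against 7.49 and 9.09 CPM in Hox3-negative cells. Of these Tcf15, a factor of somites, stood at 12.7 and 5.06 CPM in members without a SoxB1 UMI against 1.56 and 2.80 CPM in Hox3-negative cells, Pax1 and Myf5 were at 0 in control members, and Pax3, which the dorsal neural tube also expresses, at 37.4 and 35.4 CPM gave most of the sum over all members. Their part in the results was not tested.

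A single Hox3 UMI was a weak criterion. Of cells with at least 2 UMIs of the first arch markers Lhx8 and Pitx1, which should lack Hox genes, 21 of 298 in the control (7.05%, 4.42% to 10.6%) and 93 of 1111 in the null library (8.37%, 6.81% to 10.2%) had a Hox3 UMI. The share over all mesenchymal cells was 23.6% and 20.9%, at median depths of the same order. The whole rule was met by 4.03% and 4.77% of the first arch marker cells. These were 12 of the 708 control members and 53 of the 912 null members. The same markers also picked cells at E10.5, where the dissection left out the first arch. Of these, 45.4% and 40.0% in the controls and 55.0% and 75.6% in the nulls had a Hox3 UMI. How many of the E9.5 marker cells truly expressed a Hox3 gene was not tested. Among members, 263 control and 353 null cells had exactly 1 Hox3 UMI, 144 and 219 had 2, 301 and 340 had 3 or more, and the highest number was 12 in both libraries. Just outside the rule on this side lay 3317 control and 4893 null cells that met every other criterion with 0 Hox3 UMIs. For the mesenchymal genes, 104 control and 156 null members had exactly 2 UMIs, while 288 and 359 cells that met the rest of the rule had 1 and 654 and 642 had none.

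Members made up 11.9% of the control mesenchymal cells (11.1% to 12.7%) and 11.3% of the null mesenchymal cells (10.6% to 12.02%), and these intervals overlapped. With cells that had a SoxB1 UMI left out of both sides, the shares were 8.78% and 7.43%. After thinning every cell to 5000 UMIs and applying the rule to what remained, they were 7.26% and 5.80%. The null share of mesenchymal cells was the lower in each case. Over all cells that passed the limits on genes and mitochondrial UMIs the order was reversed. Members made up 8.22% of these in the control and 8.62% in the null library. The overlap of intervals was read for the rule as given only, and no interval is given for these alternatives. The criterion of no Sox10 or Foxf1 UMI decided the number of members: of 1407 control and 1681 null mesenchymal cells with a Hox3 UMI, it removed 699 and 769, nearly all of them for Sox10 (666 and 726) and few for Foxf1 (47 and 56). Libraries of the same genotype differed in this share at E10.5, where the dissection left out the first arch. The same rule took 34.3% and 24.6% of mesenchymal cells from the controls of that stage, and 48.0% and 57.3% from its nulls. At E8.5 it found 17 cells.

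Of 5 caudal arch genes, 2 reached 50 CPM in a sum, Meox1 and Kitl, and both were higher in members than in other mesenchymal cells. Over all members only Meox1 passed 2-fold in both libraries. Meox1, a homeobox factor best known from somites (ENSMUSG00000001493, mm10 chr11:101877510-101894374, minus strand), stood at 225 CPM in control and 100.0 CPM in null members, against 76.5 and 28.3 CPM in the other mesenchymal cells. Kitl, the ligand of the Kit receptor (ENSMUSG00000019966, mm10 chr10:100015630-100100416, plus strand), stood at 68.6 and 58.4 CPM against 37.5 and 26.0 CPM. The contrast was wider between members without a SoxB1 UMI and Hox3-negative cells, where both sides of the comparison had changed. Of the other mesenchymal cells, 13.31% in the control and 10.75% in the null library had a Hox3 UMI, and Hox3-negative cells leave these out. Meox1 then stood at 337 and 174 CPM in members and at 29.6 and 6.17 CPM in Hox3-negative cells, which is 11.4-fold higher in the control and 28.3-fold higher in the null library. Kitl stood at 93.5 and 93.2 CPM against 27.9 and 20.1 CPM, which is 3.35-fold and 4.64-fold higher. Both genes were named with the label, and Hoxa3 and Hoxb3, the other 2, belong to the rule.

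The remaining Hox genes followed their paralog order. Hoxb2 stood at 91.4 and 87.1 CPM in members without a SoxB1 UMI and at 13.8 and 13.3 CPM in Hox3-negative cells, 6.61-fold and 6.53-fold higher in members. The 7 measured genes of groups 4 and 5 summed to 68.4 CPM in control and 38.8 CPM in null members without a SoxB1 UMI, and to 1.27 and 0.909 CPM in Hox3-negative cells. Hoxd4 and Hoxb4 gave most of that sum, with 38.1 and 23.4 CPM in the control. Groups 6 to 9 were nearly absent, since the 12 genes summed to 0.207 and 0.215 CPM in all members, 10 of them at 0 in the control and 9 in the null library. The cofactor Meis1, which binds DNA with Hox proteins, stood at 38.4 and 49.9 CPM against 13.0 and 14.4 CPM in Hox3-negative cells, 2.95-fold and 3.48-fold higher.

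Hox3-negative cells were of different arches, and the comparison was also made with each kind. Cells with a Hoxa2 or Hoxb2 UMI (585 control and 806 null cells, the code of the second arch) had 99.3 and 18.1 CPM of Meox1, and cells with neither (2140 and 3385) had 8.61 and 3.05 CPM. Kitl stood at 27.6 and 26.2 CPM in the Hox2-positive cells and at 27.9 and 18.5 CPM in the Hox2-negative cells. Zfp503, a zinc finger repressor, stood at 49.8 and 62.0 CPM in the Hox2-positive cells, at 5.08 and 5.19 CPM in the Hox2-negative cells and at 70.4 and 80.2 CPM in members without a SoxB1 UMI. Meis1 behaved likewise, with 46.0 and 52.1 CPM in Hox2-positive cells. Tfap2b, a crest transcription factor, was different: it stood at 15.9 and 16.6 CPM in Hox2-positive cells, 18.0 and 17.2 CPM in Hox2-negative cells and 78.6 and 77.8 CPM in members. Zfp503 and Meis1 were thus shared with Hox2-positive cells, and Tfap2b and Kitl were higher in members than in either kind. The 5 genes of Hox groups 1 and 2 summed to 135 and 137 CPM in Hox2-positive cells. In members without a SoxB1 UMI they summed to 122 and 132 CPM. The Hox2-positive cells were chosen on Hoxa2 and Hoxb2, which belong to that list.

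**Figure D2:**
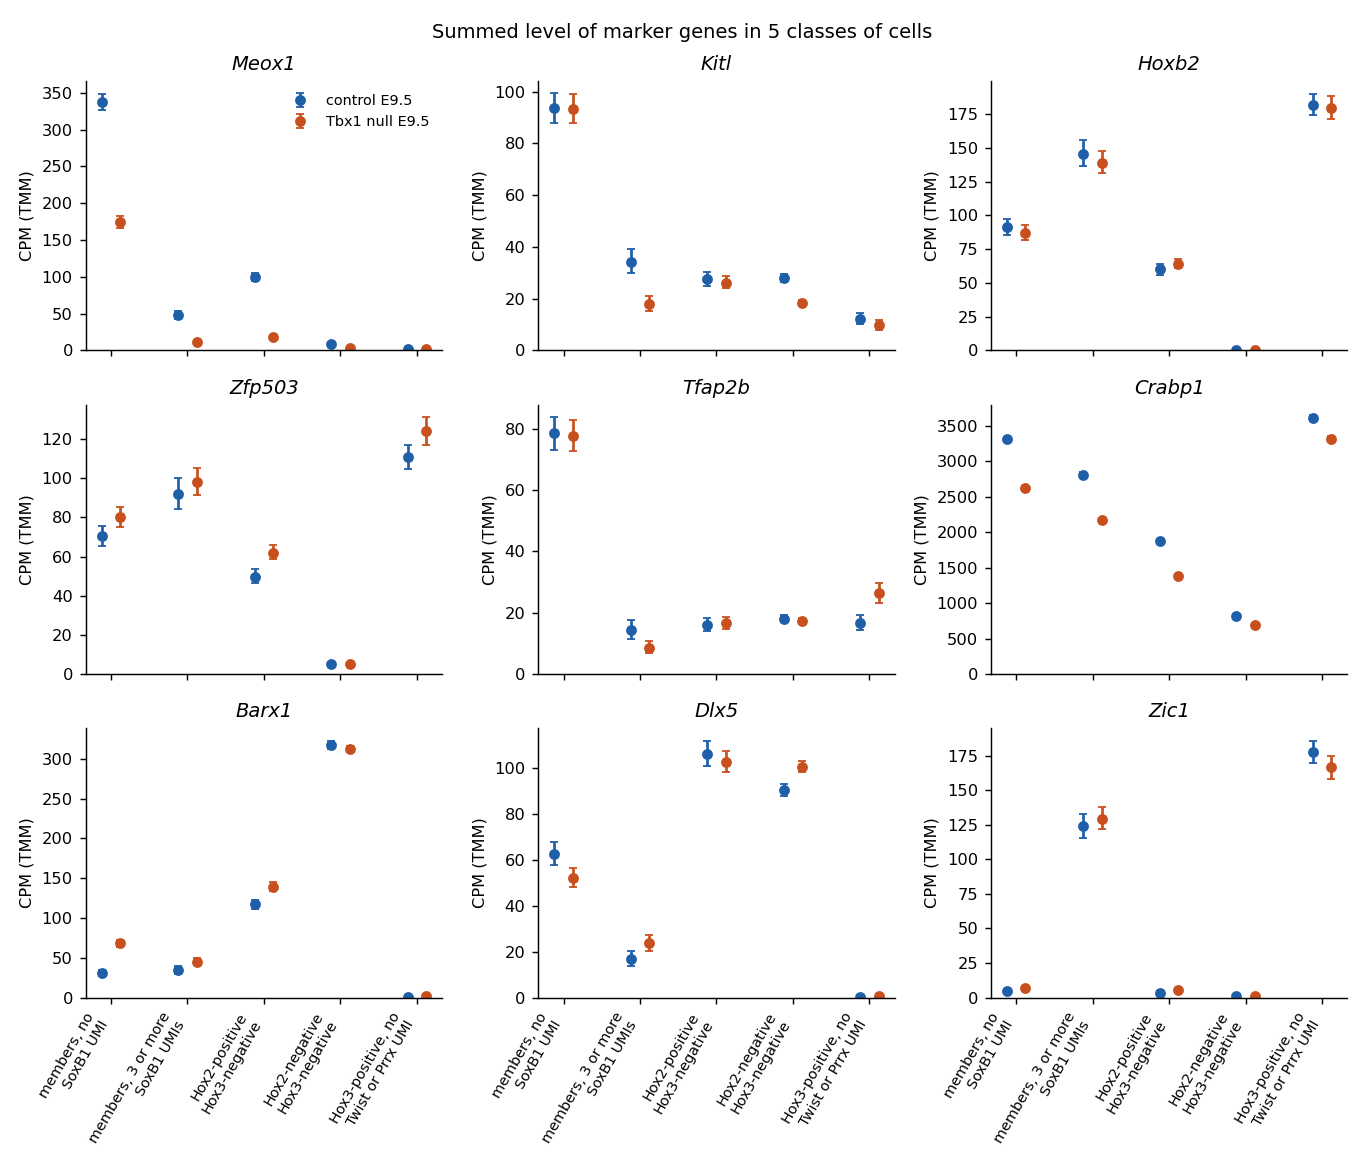
Summed CPM (y axes, linear from 0, TMM-scaled) of 9 genes in 5 classes of E9.5 cells, blue for control and orange for Tbx1 null, with bars for the 95% Poisson interval of each library's sum. Meox1, Kitl and Tfap2b are highest in members without a SoxB1 UMI, Zic1 is high only in the classes with SoxB1 UMIs or without Twist1, Prrx1 and Prrx2 UMIs, and Barx1 is highest in the Hox2-negative cells.

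Of 2774 genes with at least 50 CPM in any sum, 17 (0.613%) stood past 2-fold higher in members than in other mesenchymal cells in both libraries and 3 (0.108%) past 2-fold lower. The comparison is a description, because the members were chosen on these cells, and the 8 genes of the rule were left out. At least 6 of the 17 are known from the neural tube, namely Wnt1, a ligand of the dorsal midline (53.7 CPM in control and 64.9 CPM in null members against 9.29 and 9.51 CPM), the zinc finger factor Zic1 (47.7 and 61.3 against 9.12 and 9.06 CPM), the basic helix-loop-helix factor Olig3 (55.2 and 53.0 against 11.8 and 8.33 CPM), the Notch target Hes5, the homeobox gene Msx3 and Sox2. Members without a SoxB1 UMI had no Sox2 UMI by the way they were divided. The others of these genes were low there. Wnt1 stood at 4.64 and 6.28 CPM, Zic1 at 4.92 and 6.63 CPM and Olig3 at 3.03 and 3.58 CPM. Ckb, Tubb2b, Map1b, Fabp7, Igfbp2 and Crip2 were also among the 17, with Hoxb2, Hoxb3os, Zfp503 and Meox1. Hoxb3os is the transcript antisense to Hoxb3, a gene of the rule, and only strand tells their reads apart. The 3 lower genes were Barx1, Cthrc1 and H19.

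Members without a SoxB1 UMI were also compared with Hox3-negative cells. Of 2823 genes tested, 11 (0.39%) stood past 2-fold higher in members than in Hox3-negative cells in both libraries and 5 (0.177%) past 2-fold lower. Of the 11, 5 (45.5%) were also among the 17 above (29.4% of those), and 2 of the 5 lower genes (40.0%) were among the 3 above (66.7%). The higher genes included the transcription factors Meox1, Hoxb2, Zfp503 and Tfap2b, the secreted factors Kitl and Dkk1 (an inhibitor of Wnt signalling), the retinoic acid binding protein Crabp1, and Crmp1, Tubb2b and Gsta4. Crabp1 had the highest level of these, with 3310 CPM in control and 2630 CPM in null members against 1065 and 840 CPM, a 3.11-fold and 3.13-fold difference. Tfap2b was 4.47-fold and 4.55-fold higher and Zfp503 4.57-fold and 4.72-fold higher, so the 2 libraries gave nearly the same ratio for these genes. Dkk1 differed between libraries, at 63.2 and 34.1 CPM in members against 11.8 and 12.6 CPM, hence 5.35-fold higher in the control and 2.71-fold higher in the null library.

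The 5 lower genes included markers of the rostral arches. Barx1, a homeobox gene of facial mesenchyme (ENSMUSG00000021381, mm10 chr13:48662998-48666507, plus strand), stood at 31.0 and 68.0 CPM in members without a SoxB1 UMI and at 272 and 277 CPM in Hox3-negative cells, 8.79-fold and 4.07-fold lower. Mab21l2 stood at 9.85 and 25.2 CPM against 40.1 and 55.5 CPM. Stk26, a kinase, Cthrc1, a secreted collagen-related protein, and Rap2c, a small GTPase, were 4.27-fold, 2.64-fold and 2.25-fold lower in the control. Lhx8 and Dlx6 did not reach 50 CPM and so were not counted. Lhx8, a marker of the first arch, stood at 3.88 and 8.98 CPM against 13.5 and 30.3 CPM, and Dlx6 at 16.9 and 19.2 CPM against 49.6 and 49.6 CPM.

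Gene lists chosen with earlier results in view were read against those shares. Of the 5 caudal arch genes 2 passed the filter, Meox1 and Kitl, and both stood past 2-fold higher in members without a SoxB1 UMI. Below the filter, Tshz2, a zinc finger factor, stood at 41.9 and 37.9 CPM against 9.94 and 11.9 CPM, and Slitrk6, a neuronal membrane protein, at 2.84 and 3.14 CPM against 0.191 and 0.260 CPM. The 6 Dlx genes, which encode the position along the proximal to distal axis of an arch, had 3 members tested, none past 2-fold, with median log2 ratios of -0.59 and -0.46 against -0.05 and -0.05 over all genes tested. Their sum was 196 and 207 CPM in members and 310 and 324 CPM in Hox3-negative cells. Of the 11 first arch and arch patterning genes 1 passed the filter (Barx1). The retinoic acid list had 3 of 15 genes tested and 1, Crabp1, past 2-fold. All 12 S phase and all 12 G2 and M phase genes were tested and none passed 2-fold, with medians between -0.11 and -0.02. Of 7 BMP target genes tested, only Dkk1 passed 2-fold. The mesenchymal list had 5 of 11 genes tested and none past 2-fold, with medians of -0.35 and -0.03.

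The members differed among themselves in which Hox3 gene was seen. In the control, Hoxb3 alone was found in 24.2%, Hoxa3 alone in 15.8% and Hoxd3 alone in 15.1%, and all 3 in 9.46%. In the null library these were 20.9%, 17.1%, 17.5% and 10.2%. With a median of 2 Hox3 UMIs a cell, the absence of a gene from a cell says little, and after thinning to 5000 UMIs 60.5% of control and 56.7% of null members had none left. Meox1 was lowest where no Hox3 UMI remained: in thinned null members without a SoxB1 UMI it stood at 137 CPM in the 267 cells with 0 remaining Hox3 UMIs, 199 CPM in the 138 with 1, 341 CPM in the 51 with 2 and 300 CPM in the 10 with 3 or more. In the control the same steps were 317, 371, 384 and 422 CPM in 242, 126, 25 and 9 cells. Both are descriptions over cells of 1 library each.

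Further divisions used genes outside the rule, in cells thinned to 5000 UMIs. Dlx5 or Dlx6, which mark the distal arch, had a UMI in 23.1% of control and 18.5% of null members without a SoxB1 UMI (19.1% to 27.6% and 15.0% to 22.3%). These cells had less Meox1, 168 CPM against 393 CPM in the control and 74.4 CPM against 205 CPM in the null library, and less Kitl, 58.1 against 96.4 CPM and 67.4 against 101 CPM. They had more Hand2, a factor of distal arch mesenchyme, at 47.3 against 9.71 CPM and 72.1 against 2.11 CPM, and more Msx2, at 103 against 38.2 CPM and 135 against 61.1 CPM. A Hox group 4 or 5 UMI was found in 23.4% of control cells (19.3% to 27.8%) and 15.9% of null cells (12.7% to 19.5%). These had more Meox1 (466 against 303 CPM, and 249 against 168 CPM), more Kitl (115 against 79.2 CPM, and 116 against 90.3 CPM) and less Dlx5 (23.4 against 73.4 CPM, and 13.5 against 46.9 CPM). In members without a SoxB1 UMI, Meox1 and Kitl were thus higher where Dlx5 and Dlx6 were not seen and where Hox groups 4 and 5 were. Over all members the difference by Dlx5 and Dlx6 had the same direction, but that by Hox groups 4 and 5 did not in the null library, where cells with such a UMI had 90.3 against 108 CPM of Meox1 and 54.9 against 63.0 CPM of Kitl. Tbx2 or Tbx3, T-box repressors of the outflow tract and arches, had a UMI in 20.1% of control and 26.6% of null cells, in which Hand2 stood at 34.6 against 14.3 CPM and 19.4 against 13.5 CPM.

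The genes whose counts varied most among members without a SoxB1 UMI, by variance over mean in both libraries after thinning, were Tubb3, Malat1, Crabp1, Cdkn1c, Igfbp2, Tmsb4x, Krt18, Hist1h1b, Ptn and Msx1. Tubb3, a tubulin of neurons, had a mean of only 0.0771 and 0.101 UMIs a cell and a variance over mean of 5.91 and 7.34, so its RNA sat in few cells. Crabp1 had means of 16.3 and 13.5 UMIs a cell and ratios of 5.25 and 5.78. Cdkn1c, a cell cycle inhibitor, had ratios of 12.7 in the control and 4.39 in the null library. Over all members the list was led by Crabp1, Tmsb4x and Malat1 and further held Cck, Gadd45g, Crabp2, Cdkn1c, Id3, Fabp7 and Tubb3, several of them genes of neural cells.

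Between genotypes few genes stood past 2-fold. Of 2658 genes with at least 50 CPM in members of either library, 5 (0.188%) stood past 2-fold higher and 14 (0.527%) past 2-fold lower in null members. Between the 2 control libraries at E10.5, cells taken by the same rule had 52 of 3268 genes past 2-fold either way (1.59%), and between the 2 null libraries 125 of 3304 (3.78%). The median size of the log2 ratio was 0.12 between genotypes at E9.5 and 0.17 and 0.38 between the E10.5 replicates. The E10.5 replicates differed in the share of members with 3 or more SoxB1 UMIs, which was 29.7% and 6.67% in the controls and 40.1% and 47.4% in the nulls. In members without a SoxB1 UMI the medians were 0.13 between genotypes and 0.17 and 0.38 between replicates, while the 95th percentile between genotypes, 0.57, lay above that of the control replicates, 0.53, and below that of the null replicates, 1.00.

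Most of the 19 genes were not genes of arch development. The higher genes were Rpl29 (104 CPM in control and 477 CPM in null members), Tpm3-rs7 (36.5 and 96.5 CPM), AY036118, Gm42418 and Xist. The lower ones included the histone genes Hist1h2ap (1140 and 495 CPM), Hist1h2ae, Hist1h4d and Hist1h3c, the ribosomal gene Rps28 (3664 and 1693 CPM), the mitochondrial protein genes Romo1, Atp5md and mt-Nd4l, Dpm3, Polr2l, Gm2000, Gm10076 and Meox1. The other mesenchymal cells of the same 2 libraries gave nearly the same values, with a log2 ratio of 2.19 in members and 2.21 in other cells for Rpl29 and of -1.20 and -1.22 for Hist1h2ap. Rpl29 and Rps28 have processed copies elsewhere in the genome, so that their counts are uncertain. At E10.5, where all 19 genes were tested in cells of the same rule, both null libraries lay above both control libraries for 1 of the 5 higher genes and below them for 3, against a share of 13.5% of all genes above and 32.2% below. For 4 of the 14 lower genes both null libraries lay below both controls, near the share over all genes, and for 1 both lay above.

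Meox1, of the caudal arch list but best known from somites, was among the 19. The 6 somite markers summed to 20.9 CPM in control and 15.2 CPM in null members without a SoxB1 UMI. Whether somite cells had a part in the Meox1 difference was not tested. Meox1 stood at 225 CPM in control and 100.0 CPM in null members, a log2 ratio of -1.17 (-1.25 to -1.10). Members without a SoxB1 UMI had 337 and 174 CPM and a log2 ratio of -0.95 (-1.03 to -0.87), short of 2-fold. The difference was also present in cells outside the rule, since Hox3-negative cells had 29.6 and 6.17 CPM and a log2 ratio of -2.26. Members had a median of only 2 Hox3 UMIs, so caudal arch cells whose Hox3 RNA was missed can be among the Hox3-negative cells. Their part in this Meox1 difference was not tested. After thinning to 5000 UMIs, Meox1 was detected in 64.2% of control (59.3% to 68.9%) and 45.9% of null members without a SoxB1 UMI (41.3% to 50.6%), and in 7.85% and 2.53% of Hox3-negative cells. Without thinning the shares in members were 81.6% and 65.5%. Kitl did not follow it: members without a SoxB1 UMI had a log2 ratio of -0.00 (-0.13 to 0.12), and thinned shares of 32.3% and 35.2% with overlapping intervals. Over all members its log2 ratio was -0.23 (-0.34 to -0.12), and in Hox3-negative cells its thinned share was 11.96% (10.8% to 13.3%) in the control and 8.72% (7.87% to 9.63%) in the null library.

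**Figure D3:**
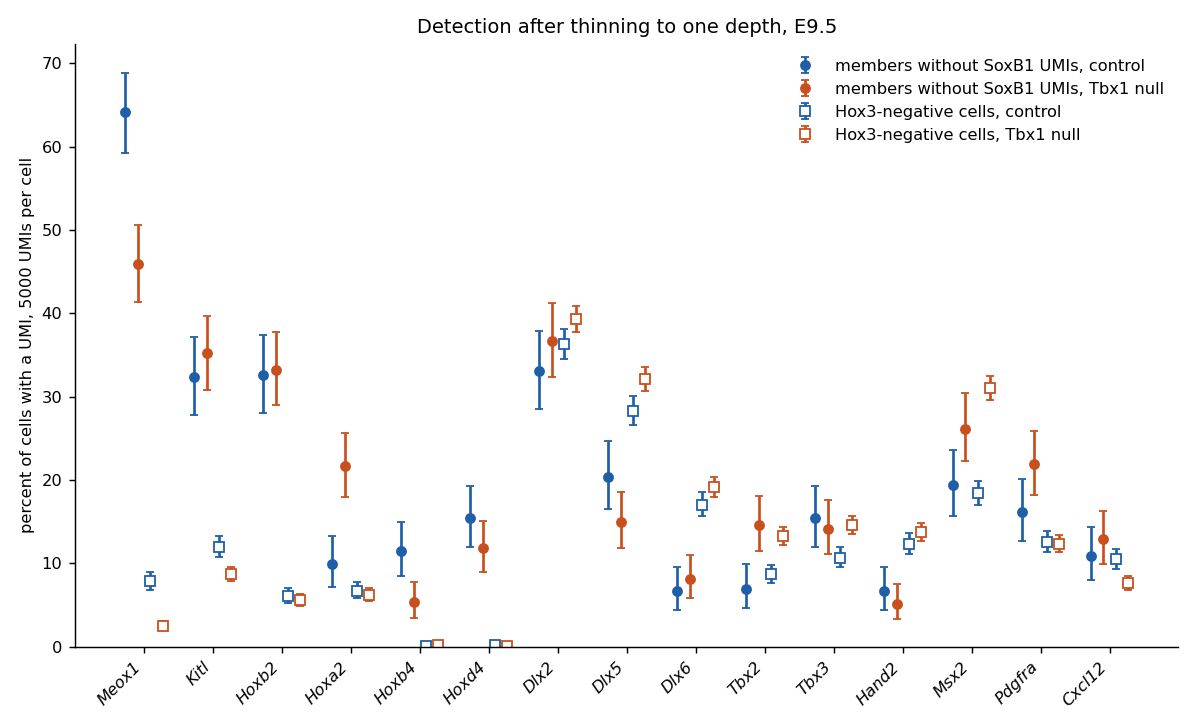
Percent of cells with at least 1 UMI of each of 15 genes (y axis) after thinning to 5000 UMIs a cell, for members without a SoxB1 UMI (filled circles) and Hox3-negative cells (open squares) of the control (blue) and Tbx1 null (orange) library. Bars are 95% Clopper-Pearson intervals. The Meox1 intervals of the 2 genotypes are apart in both kinds of cell, while those of Kitl and Hoxb2 overlap in members.

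In members without a SoxB1 UMI, 6 of 2732 genes (0.22%) stood past 2-fold higher and 23 (0.842%) past 2-fold lower in the null library. The higher genes were those above except for the addition of Barx1, which had 31.0 CPM in control and 68.0 CPM in null members, a log2 ratio of 1.13 (0.95 to 1.32). In Hox3-negative cells Barx1 had a log2 ratio of 0.02. The lower genes held most of those above, without Meox1, and further ribosomal and respiratory genes (Rps21, Rpl38, Rpl37, Rpl36, Cox17, Slirp), the glycolytic genes Hk2 and Eno1b, Myef2 and Tle4. Hk2, which starts glycolysis, had 79.5 and 38.1 CPM.

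Single Hox genes of the lists were compared between genotypes in members without a SoxB1 UMI. Hoxa2 stood at 27.6 CPM in control and 43.4 CPM in null cells, a log2 ratio of 0.66 (0.45 to 0.87). Hoxb2 stood at 91.4 and 87.1 CPM (-0.20 to 0.06 on the log2 scale). Hoxd4 stood at 38.1 and 22.9 CPM (-0.96 to -0.50) and Hoxb4 at 23.4 and 11.95 CPM (-1.28 to -0.66). Hoxb4 was detected in 11.4% of control (8.50% to 15.0%) and 5.37% of null cells (3.502% to 7.82%) after thinning, and Hoxa2 in 9.95% (7.20% to 13.3%) and 21.7% (18.0% to 25.7%). Hoxd4 was detected in 15.4% (12.03% to 19.3%) and 11.8% (9.02% to 15.1%), with overlapping intervals. Members with 3 or more SoxB1 UMIs did not show the lower level, since the sum of groups 4 and 5 was 111 CPM in the control and 118 CPM in the null library. None of these genes passed 2-fold, and only Hoxb2 passed the filter of 50 CPM. At E10.5, in cells of the rule without a SoxB1 UMI, Hoxb4 stood at 45.9 and 59.6 CPM in the controls and 16.7 and 68.5 CPM in the null libraries, and Hoxd4 at 81.2 and 80.3 against 62.3 and 83.8 CPM, so both genes overlapped between genotypes.

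The genotype ratio of members was near that of other mesenchymal cells for nearly all genes. The 2 log2 ratios lay within 0.2 of each other for 97.0% of 2658 genes and differed by over 0.5 for 10. The widest difference was at Dlk1, an imprinted membrane protein related to Notch ligands (ENSMUSG00000040856, mm10 chr12:109452823-109463336, plus strand). It stood at 65.5 CPM in control and 35.5 CPM in null members and at 51.0 and 70.9 CPM in the other cells, hence lower in null members and higher in null cells of the other kind, a difference of the log2 ratios of -1.36 (-1.49 to -1.22). Without SoxB1 cells it stood at 99.1 and 50.1 CPM in members and 45.6 and 68.0 CPM in Hox3-negative cells, a difference of -1.56 (-1.72 to -1.40). The Hox2-positive Hox3-negative cells had 32.7 and 35.8 CPM. Meg3, the noncoding RNA of the same imprinted locus, also differed, by -0.51 (-0.60 to -0.42).

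Among the genes ranked lowest by the difference of genotype ratios, which were chosen for it, was Msmo1. This gene, an enzyme of cholesterol synthesis, stood at 69.5 CPM in control and 37.9 CPM in null members without a SoxB1 UMI and at 29.0 and 32.1 CPM in Hox3-negative cells, with a difference of the log2 ratios of -1.02 (-1.21 to -0.83). Further genes of that ranking were Fdps, Idi1 and Hmgcs1, which encode enzymes upstream of sterols. Fdps had a difference of -0.77 (-0.85 to -0.69), Idi1 of -0.82 (-0.97 to -0.66) and Hmgcs1 of -0.79 (-0.94 to -0.64). In control cells Fdps stood at 304 CPM in members and 185 CPM in Hox3-negative cells.

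Dkk1 also had a lower ratio in members. It stood at 63.2 and 34.1 CPM in members without a SoxB1 UMI and at 11.8 and 12.6 CPM in Hox3-negative cells, a difference of -0.98 (-1.21 to -0.76). On the other side, the growth factor Ptn stood at 167 and 327 CPM in members without a SoxB1 UMI and 262 and 270 CPM in Hox3-negative cells, a difference of 0.93 (0.84 to 1.01). Barx1 differed by 1.11 (0.92 to 1.30) and Mab21l2 by 0.88 (0.55 to 1.21), both toward the level of Hox3-negative cells. Over all members, 12 control and 53 null cells were first arch marker cells by Lhx8 and Pitx1. Their part in the Barx1 and Mab21l2 differences was not tested. Lpar1, a receptor of lysophosphatidic acid, stood at 22.2 and 40.8 CPM in members and differed by 0.64 (0.41 to 0.88). Over all members the genes on this side were Msx3, Hes5, Sfrp2, Sox2 and Barx1, and Hes5, Msx3 and Sox2 are genes of the neural cells described above.

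**Figure D4:**
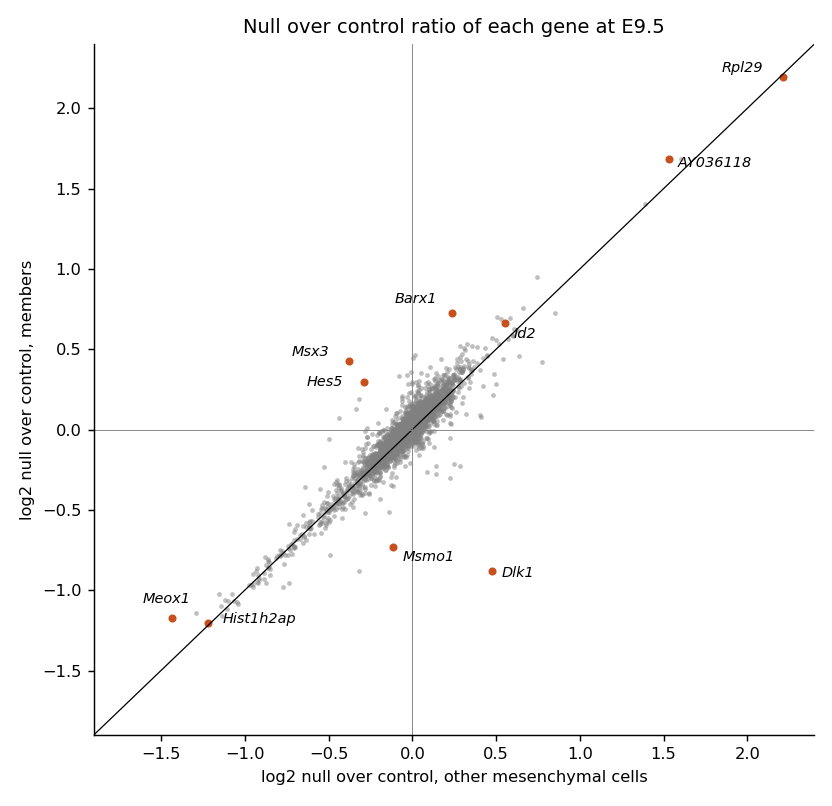
Each point is a gene with at least 50 CPM. The x axis gives its log2 ratio of Tbx1 null over control in other mesenchymal cells and the y axis the same in members, the line marks equal ratios, and named genes are orange. Most points lie near the line, Dlk1 and Msmo1 lie below it and Barx1, Msx3 and Hes5 above it, and Xist, which was near 0 in the control library, lies outside the axes.

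The BMP, FGF and MAPK target genes that passed the filter differed by less than 2-fold between genotypes. Of the 13 BMP target genes 7 passed the filter in members without a SoxB1 UMI, none past 2-fold, and 6 lay above 0 on the log2 scale with a median of 0.39 against -0.06 over all genes. Id2, an inhibitor of helix-loop-helix factors, stood at 228 and 401 CPM and Id3 at 769 and 1049 CPM, and Dkk1 was the exception. The BMP target sum was higher in the null library in members, at 2094 and 2768 CPM, and in Hox3-negative cells, at 1755 and 2530 CPM. Only 1 of 14 FGF and MAPK target genes passed the filter, Dusp6, a phosphatase of that pathway, with 54.3 and 40.1 CPM in members and 51.2 and 50.3 CPM in Hox3-negative cells. Etv4 and Etv5, transcription factors downstream of FGF, stood lower, at 19.5 and 12.2 CPM and at 17.4 and 10.5 CPM in members, against 7.14 and 6.29 CPM and 12.7 and 13.4 CPM in Hox3-negative cells. Spry2, a feedback inhibitor, stood at 32.7 and 18.0 CPM in members and 19.8 and 13.0 CPM in Hox3-negative cells. All 14 FGF and MAPK target genes summed to 290 and 235 CPM in members without a SoxB1 UMI and to 258 and 254 CPM in Hox3-negative cells. In members with 3 or more SoxB1 UMIs the order was reversed, at 98.4 and 106 CPM. Tbx2 stood at 19.0 and 30.0 CPM in members and 18.0 and 30.6 CPM in Hox3-negative cells, and its thinned share was 6.97% (4.68% to 9.91%) and 14.6% (11.51% to 18.1%).

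The E10.5 libraries, with 2 of each genotype, held cells of the same rule without a SoxB1 UMI, in which the same genes were read. Id2 stood at 324 and 355 CPM in the controls and 559 and 428 CPM in the nulls, so the groups were apart and in the E9.5 order. Over all members at E10.5, SoxB1 cells included, both null libraries lay above both controls for 13.5% of all genes and below them for 32.2%, so neither order was rare. Barx1 was in the reverse order, with 152 and 107 CPM in the controls and 33.0 and 11.4 CPM in the nulls. The next 5 genes overlapped between genotypes. Dlk1 had 183 and 149 CPM against 166 and 104 CPM, Dkk1 had 68.1 and 41.5 CPM against 47.2 and 29.3 CPM, and Ptn had 976 and 1074 CPM against 968 and 1135 CPM. Meox1 was low at this stage, with 28.6 and 26.0 CPM in the controls and 65.4 and 24.2 CPM in the nulls. Msmo1 had 89.3 and 78.1 CPM against 140 and 76.4 CPM. With 2 libraries against 2, no exact permutation test can reach p = 0.05, and none was run.

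**Figure D5:**
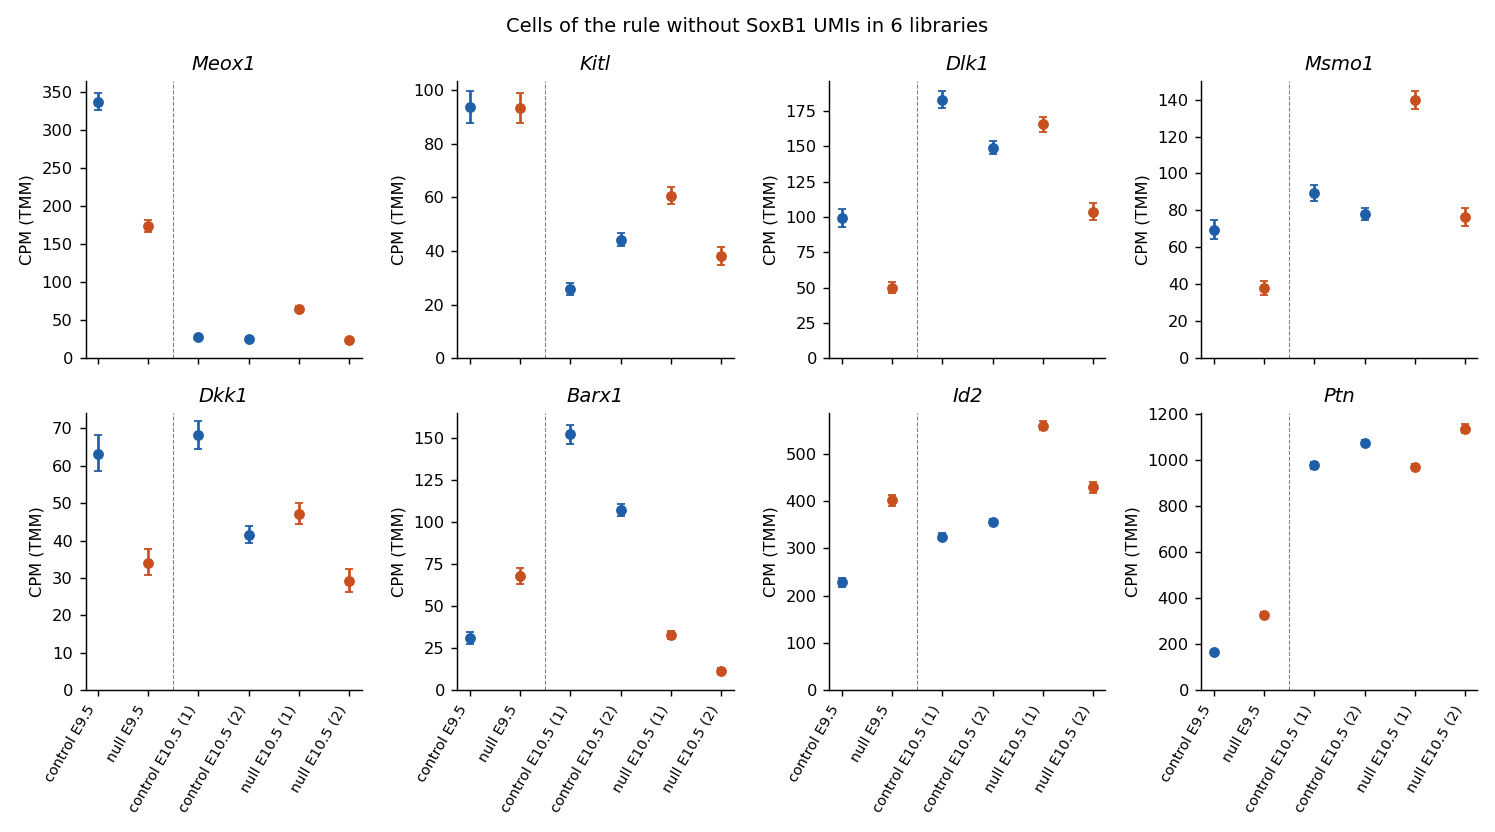
Summed CPM (y axes, linear from 0, TMM-scaled) of 8 genes in cells of the rule without a SoxB1 UMI, for the control (blue) and Tbx1 null (orange) libraries at E9.5 (left of the dashed line) and for both replicates of each genotype at E10.5, with 95% Poisson intervals. Id2 is higher in every null library than in the controls of its stage, while Barx1 is higher in the null library at E9.5 and lower in both null libraries at E10.5.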

How the data were processed

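Per the submitters' processing notes, reads were handled with Cell Ranger 6.0.1 on mm10. The authors deposited UMI counts per gene and barcode for 65862 barcodes, without normalization. Of 32285 gene identifiers, 32158 had a position in GENCODE vM21. The members and the gene lists were chosen with earlier results of these data known.

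UMI counts were summed per library and class of cells, scaled to CPM with TMM factors, and compared as log2 ratios with 0.5 UMIs added to each sum. Genes with at least 50 CPM in a sum were counted past 2-fold. Intervals were 95% Poisson for CPM, conditional binomial for ratios, and Clopper-Pearson for shares. A count of 0 allows up to 3 UMIs. Cells were not used as replicates. Doublets were called with Scrublet at 0.8% of barcodes per 1000 barcodes, at E9.5. Shares of cells were taken after thinning to 5000 UMIs. The scripts were tested on simulated data.

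Genes were named by rule: the genes of 45 lists, the 10 highest and 10 lowest between members and other cells and between genotypes, the 5 with the widest difference of genotype ratios each way, and the 10 of highest variance over mean. Rule genes, Xist, mitochondrial genes and numbered gene models were left out of these rankings. The same rules were applied to members without SoxB1 UMIs, a division made after the data were seen, and the remaining genes past 2-fold were named after their values were seen. Doublets, thinning, the SoxB1 cells, the filter, the fold and the scaling were varied. Some genes are not reported here. Python 3.11.15, numpy 2.4.6, scipy 1.17.1, pandas 2.3.3 and scanpy 1.11.5 were used.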

Additional observations from a re-analysis of the deposited data

Results flagged for a closer look

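In members, numbered gene models and genes not reported here left aside, 2 genes past 2-fold had a genotype ratio at E9.5 on the opposite side from both null libraries at E10.5, and the difference between stages was not tested. Tpm3-rs7 had a log2 ratio of null over control of 1.4 at E9.5, with 112 and 85.7 CPM in the E10.5 nulls and 140 and 136 CPM in the controls. AY036118 had a log2 ratio of 1.68 at E9.5, with 6.19 and 17.8 CPM in the E10.5 nulls and 130 and 98.6 CPM in the controls.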

How the results depend on the processing

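No replicate could be left out, because each genotype had 1 library at E9.5. No paired analysis was possible because the E9.5 groups share only a number given in accession order and no test was run. The member shares in control and null cells moved from 11.9% and 11.3% to 10.8% and 9.58% without Scrublet doublets, 7.47% and 6.93% with at least 2 Hox3 UMIs, 7.26% and 5.80% after thinning, 23.6% and 20.9% with Sox10 and Foxf1 cells kept, and 8.78% and 7.43% without SoxB1 cells, an alternative added after seeing the data. Genes past 2-fold in members against other cells, 17 higher and 3 lower, moved to 22 and 6 without doublets, 5 lower with the mean of single-cell CPM, 11 and 8 after thinning, 11 and 11 with Sox10 and Foxf1 cells kept, 97 and 27 at 10 CPM, 3 and 1 at 200 CPM, 27 and 12 at 1.5-fold, and 5 higher without SoxB1 cells. Genes past 2-fold between genotypes, 5 higher and 14 lower, moved to 6 and 19 without doublets, 6 and 23 after thinning, 14 and 36 at 10 CPM, 3 and 9 at 200 CPM, and 16 and 92 at 1.5-fold. Without SoxB1 cells, with TMM factors over members and other cells alone, 7 were higher and 17 lower. The number of genes whose genotype ratio differed by over 1 on the log2 scale between members and other cells was 1, and it was 3 without doublets, after thinning or with Sox10 and Foxf1 cells kept, 2 with 2 Hox3 UMIs, single-cell means, 5 UMIs added or no SoxB1 cells, 10 at 10 CPM and 0 at 200 CPM. The CPM filters change the number of genes tested by construction, and the cause of the other changes was not tested. Of 114 log2 values over 38 named genes, no value past 2-fold changed sign. Beyond counting error, 83 moved after thinning, 72 without SoxB1 cells, 62 with Sox10 and Foxf1 cells kept and 53 without doublets. With at least 2 Hox3 UMIs 53 moved, with plain totals 36 and with the mean of single-cell CPM 27. Plain totals moved the median of all genes by 0.03 (log2) in members and by 0.08 in members without a SoxB1 UMI. Members held 19125172 UMIs in the control and 22485175 in the null library, and the counting interval of a gene's ratio widens as its CPM falls.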

Other observations

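Cell cycle genes differed between genotypes in members without a SoxB1 UMI by less than 2-fold. All 12 genes of the G2 and M phases had a higher level in the null library, with a median log2 ratio of 0.22, as with the cyclin Ccnb1 (134.5 and 163 CPM) and the topoisomerase Top2a (216 and 255 CPM). Of 12 S phase genes, 2 lay above 0, with a median of -0.16, while the median over all genes was -0.06. The same direction was seen outside the members: the G2 and M phase sum was 1560 CPM in control and 1743 CPM in null Hox3-negative cells, and the S phase sum 2083 and 1955 CPM. Prc1, which organizes the spindle in late mitosis, stood at 45.3 and 74.5 CPM, and the cell cycle inhibitor Cdkn1c at 159 and 262 CPM. In Hox3-negative cells Cdkn1c stood at 144 and 218 CPM. At E10.5 Cdkn1c stood at 589 and 563 CPM in the controls and 503 and 881 CPM in the nulls, so the genotypes overlapped. The retinoic acid binding protein Crabp2 stood at 209 CPM in control and 324 CPM in null members without a SoxB1 UMI at E9.5, and at 277 and 292 CPM in Hox3-negative cells. Its E10.5 values were 367 and 411 CPM in the controls and 585 and 498 CPM in the nulls.

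The cells that the rule set aside for Sox10 or Foxf1, 521 in the control and 520 in the null library after SoxB1 cells were left out, carried the same caudal genes. Meox1 stood at 318 and 189 CPM in them and Kitl at 98.1 and 74.0 CPM. Tfap2b stood at 156 and 189 CPM and Crabp1 at 4607 and 4010 CPM, both above the levels in members without a SoxB1 UMI. Lower levels than in those members were found for Barx1 at 16.7 and 35.3 CPM, Dlx5 at 14.3 and 17.0 CPM and the homeobox gene Msx1 at 11.6 and 16.4 CPM, while the list of 11 first arch and arch patterning genes summed to 78.5 and 87.5 CPM against 82.2 and 116.5 CPM in those members.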
